A study of Mus musculus with 6 samples.

Results

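Homeostatic microglia of the subventricular zone (SVZ), the stem cell niche along the lateral ventricle of the adult mouse brain, were the cells that the authors' cell table places in the class microglia and in the subcluster homeostatic, which is their microglial cluster 0. They were 175 of 416 microglia and of 658 cells in all, and the other 241 microglia lay in clusters 1 to 4. The cells came from Nestin-CreERT2:R26-yfp mice that were given tamoxifen at 8 to 12 weeks of age, before any injury. There were 3 groups, which were uninjured mice, mice 1 day after photothrombotic ischemia (PT D1) and mice 7 days after it (PT D7). Photothrombotic ischemia closes cortical vessels by lighting the dye Rose Bengal in the blood, and the SVZ taken was that of the lesioned side, at a distance from the infarct. The Nestin promoter drives Cre in neural stem and precursor cells (NSPCs), which are the fluorescent cells, so the microglia carry the alleles but were chosen by sorting CD11b+ CD45low cells, with antibodies to Ly6C, Ly6G and CD3e among others in the same staining. Each group had 2 libraries, and how many mice gave cells to a library is not stated in the sources used here.

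Microglia are the resident macrophages of the brain. In the undisturbed brain they survey the tissue with moving processes, they sense neurons through the fractalkine receptor CX3CR1 and released nucleotides through P2RY12, and they depend on signals from the CSF1 receptor and from TGF-beta, with PU.1, SALL1 and MEF2 factors among their transcription regulators. After injury or in disease microglia are known to lower this set of genes and to raise others, among them Apoe, Axl and Clec7a.

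The homeostatic cells made up most microglia of uninjured mice and almost none at PT D1. Of the microglia of uninjured library 1, 54 of 71 were homeostatic (76.1%, exact 95% interval 64.5 to 85.4%), and of library 2 it was 70 of 84 (83.3%, 73.6 to 90.6%). At PT D1 there were 0 of 71 cells in library 1, where 3 counts, the limit a count of 0 allows, come to 4.23% and the exact interval reaches 5.06%, and 1 of 76 in library 2 (1.32%). At PT D7 there were 18 of 54 (33.3%, 21.1 to 47.5%) and 32 of 60 (53.3%, 40.0 to 66.3%). The order of the shares was uninjured, PT D7, PT D1 with no overlap between libraries, but the intervals of PT D7 library 2 and uninjured library 1 overlapped, and 2 libraries against 2 cannot give an exact permutation p under 0.05, so no test was made. The interval of a share covers counting error only. Among the other uninjured microglia cluster 2 was the most frequent, with 16 of 17 and 6 of 14 cells, whereas at PT D7 they were cluster 2, with 20 and 13 cells, and cluster 4, with 16 and 13.

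**Figure D1:**
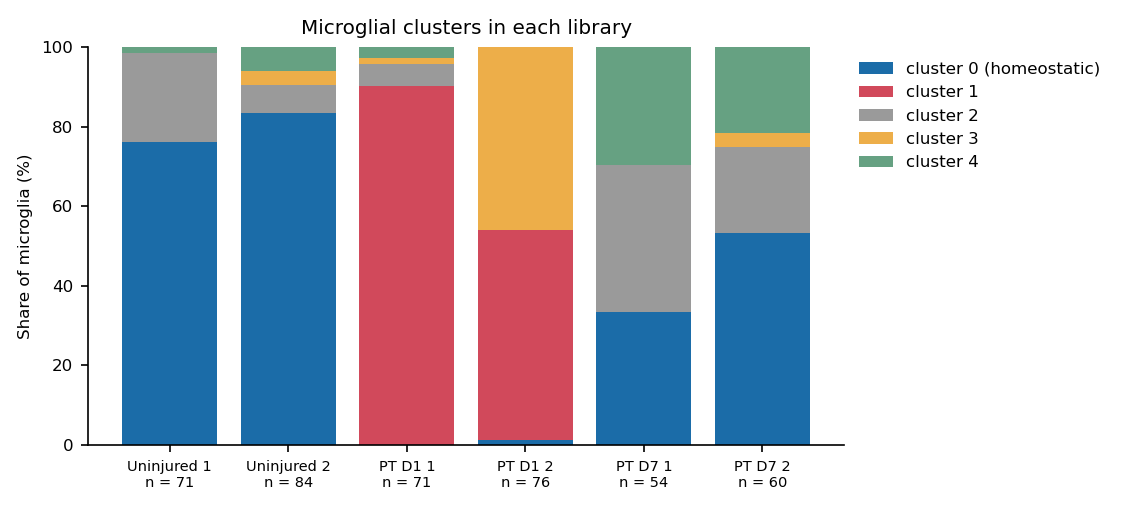
Share of microglia in each of the authors' 5 clusters, in percent, for each of the 6 libraries, with the number of microglia under each bar. Cluster 0, the homeostatic cells, takes 76.1% and 83.3% of the uninjured bars, 0% and 1.32% of the PT D1 bars, and 33.3% and 53.3% of the PT D7 bars.

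The label was set beside its markers. The cells were clustered on these same counts, and the study describes the cluster by Cx3cr1, P2ry12 and Gpr34. The marker shares that follow thus describe the cluster and are no check of it. Of the 241 other microglia 146 came from PT D1, so cluster and condition are mixed, and depth was not evened out. Of the 175 cells 150 (85.7%) held a UMI, that is a counted mRNA molecule, of all 5 markers Cx3cr1, P2ry12, Tmem119, Gpr34 and Selplg, against 76 of 241 other microglia (31.5%) and 1 of 222 NSPCs (0.450%). The single PT D1 cell went against the label: with 3948 UMIs it held 0 UMIs of each of the 5 markers and of Csf1r, and 22 UMIs of the metallothionein gene Mt1. It was the only homeostatic cell without any of the 5 markers, and it enters no ratio and no test, only the counts over all 175 cells and the levels pooled by cluster. Markers of blood cells were low but not all at 0. Of 8 monocyte markers measured 5 had a UMI in homeostatic cells and summed to 28.6, 32.4, 64.0 and 24.4 CPM in the 4 libraries with more than 1 such cell (uninjured 1 and 2, PT D7 1 and 2), with Ly6c2 and Vcan at 0. The lysozyme gene Lyz1, near-identical to the monocyte marker Lyz2, was not on this list and stood at 168, 135, 192 and 212 CPM. Of 8 lymphocyte markers 4 had one and summed to 35.8, 18.9, 48.0 and 16.3 CPM, with Cd79b the most abundant (11 UMIs) and Cd3g, Cd79a and Nkg7 at 0. Of 8 neutrophil markers 3 had one and summed to 211, 256, 208 and 228 CPM, nearly all of it Csf3r (193 UMIs), with S100a8, Camp and Retnlg at 0. No homeostatic cell held 3 or more markers of any of these lists. At least 3 of the 10 markers of border-associated macrophages, which sit at brain surfaces, had a UMI in 6 cells (3.43%), and that was 7 of the other microglia (2.90%).

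Homeostatic cells were fewer and shallower at PT D7. The homeostatic cells held 279478 and 370532 UMIs in the uninjured libraries and 62454 and 122840 at PT D7. The median UMIs per cell were 4793 in uninjured library 1, 5447.5 in library 2, 3201.5 in PT D7 library 1 and 3878.5 in library 2, and those of the other microglia of the same libraries were 4466, 6711, 5654 and 4490. The log2 median was lower in homeostatic cells in 3 of 4 libraries, by a mean of -0.31 ± 0.38 (SD, n = 4), which did not pass an exact two-sided sign-flip permutation test (p = 0.250, where 4 libraries allow no p below 0.125). Mitochondrial UMIs took a median of 7.96%, 7.34%, 6.71% and 8.86% per homeostatic cell in the same order. In the other microglia they took 3.95%, 10.6%, 4.36% and 6.58%, so the homeostatic share was the lower one in uninjured library 2 only.

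A share of all UMIs fell on predicted genes of unknown function, and this share differed between the cells compared. Gm10800 alone took 23.3%, 27.0%, 26.5% and 25.1% of the UMIs of homeostatic cells (uninjured 1 and 2, PT D7 1 and 2), and 41.9%, 27.4%, 40.1% and 34.3% of those of the other microglia. Protein-coding genes took 53.1%, 51.2%, 54.4% and 52.7% in homeostatic cells against 32.0%, 47.0%, 37.0% and 42.3%. Homeostatic cells were thus nearly even across libraries, and the other microglia were not. Levels are given as counts per 1000000 UMIs (CPM), and one UMI stands for one molecule whatever the length of the gene. The median log2 ratio of homeostatic to other microglia over all 2557 genes compared was 0.50 and not 0, and it was 0.12 when CPM were taken over protein-coding nuclear genes only. How much of the shift Gm10800 accounts for was not tested. Ratios below are to be read against that 0.50, and those named as protein-coding values against 0.12.

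The comparison with other microglia asked which genes set the homeostatic cells apart, within each of the 4 libraries that held at least 10 cells of both kinds. The cells were clustered on these same counts, so the ratios describe the cluster and were not tested. A gene was taken as higher where its mean log2 ratio was at least 1 and positive in all 4 libraries, and as lower at -1 in the same way. By that rule 277 of 2557 genes were higher (10.8%) and 30 were lower (1.17%). A gene was compared where either kind of cell averaged at least 50 CPM, which 760 genes reached in homeostatic cells only and 135 in the others only, so the direction of many of these was fixed by the filter. Over the 1662 genes that reached it in both kinds, a limit added after the data were seen, 86 were higher and 21 lower, with a median ratio of 0.40. When every library was centred on its median ratio, the split turned to 49 higher and 109 lower, and with CPM over protein-coding genes it was 158 higher and 120 lower. Under all 3 scalings 48 genes stayed higher and 11 stayed lower. Without uninjured library 2 there were 482 higher and 77 lower, and the lower genes were also 48 without uninjured library 1 and 53 without PT D7 library 2. At the edge of the rule lay Mapre1 inside, and Nr3c1 outside, both with ratios that round to 1.00, and E030032P16Rik (-1.01) inside and Cd52 (-0.99) outside on the lower side.

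The 5 markers that name the cells were higher in homeostatic cells than in other microglia of each library, with no overlap over the 4 libraries. Cx3cr1, the receptor of the neuronal chemokine fractalkine, was at 2358 and 2367 CPM in the uninjured libraries and 2354 and 1970 CPM at PT D7. The other microglia of those libraries held 1403, 1516, 972 and 922 CPM, a mean log2 ratio of 0.94 ± 0.29 (SD, n = 4 libraries, as for all ratios below). The other microglia of PT D1, mostly cluster 1, held 514 and 376 CPM, and NSPCs held 20.7 to 158 CPM, so the homeostatic level stood apart from all other cells and hardly moved between the 2 conditions.

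P2ry12, the purine receptor that steers microglial processes towards ATP and ADP, was at 1904, 2127, 2066 and 1604 CPM in homeostatic cells (uninjured 1 and 2, PT D7 1 and 2, the order used from here on) and at 1108, 942, 847 and 663 CPM in the others (ratio 1.12 ± 0.24). Tmem119, a membrane protein used as a microglial marker, was at 1073, 1169, 1585 and 830 CPM against 495, 594, 495 and 271 CPM (1.34 ± 0.35). Both of these pairs of series were apart in each library, and for Tmem119 the lowest homeostatic library, PT D7 2, still lay above the highest of the others. Gpr34, a receptor for lysophosphatidylserine, was at 859, 788, 833 and 773 CPM against 507, 358, 525 and 461 CPM (0.82 ± 0.21). Selplg, which encodes the P-selectin ligand PSGL-1, was at 2129, 1873, 2722 and 2051 CPM against 1250, 1034, 890 and 697 CPM (1.19 ± 0.45). With CPM over protein-coding genes the 5 ratios were 0.51 for Cx3cr1, 0.69 for P2ry12, 0.91 for Tmem119, 0.39 for Gpr34 and 0.76 for Selplg, so each stayed above the median of all genes but none reached 1.

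**Figure D2:**
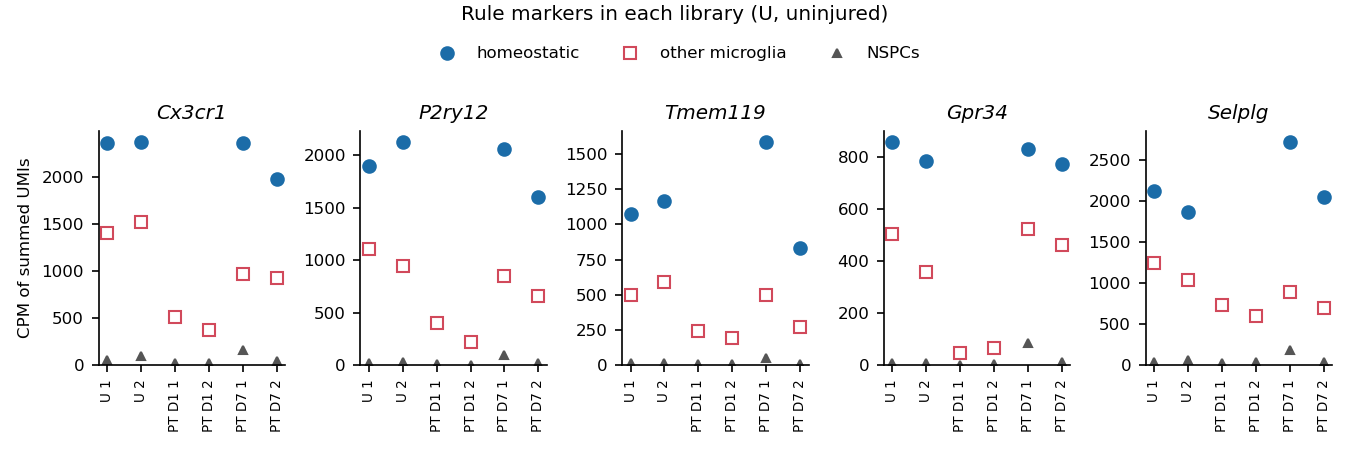
CPM of the 5 markers in each library (U, uninjured), one panel a gene, each from 0, in homeostatic microglia (filled circles, 4 libraries), other microglia (open squares) and NSPCs (triangles). Homeostatic circles lie above the squares of the same library throughout, and for Gpr34 the PT D1 squares fall to 47.3 and 65.3 CPM.

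In GRCm39 coordinates with the GENCODE vM39 annotation, Cx3cr1 lies at chr9:119877749-119898945, P2ry12 at chr3:59123682-59170429, Tmem119 at chr5:113931781-113938577 and Selplg at chr5:113956597-113970705, all on the minus strand, and Gpr34 at chrX:13489625-13507116 on the plus strand. Since the 5 genes were high together, the 250 bases before the start of each gene's canonical transcript, which for Cx3cr1, Gpr34 and Selplg lies inside the gene's span, were read for the letters of factors known in microglia. GAGGAA, the core that PU.1 prefers, was in 0 of the 5, against 22.9% of 21738 protein-coding promoters of that length. GGAAGT, an ETS core that can overlap it, was in 2 of 5 (19.0% of all), and TGANTCA, the AP-1 letters, was in 1 of 5 (6.18% of all), each on either strand. The GC box GGGCGG was in 0 of 5 (36.3% of all). A match is a description of these letters and not a bound site. The promoters of the 2 markers with a match, P2ry12 at chr3:59170430-59170679 and Tmem119 at chr5:113938578-113938827, both on the minus strand, are shown 5′ to 3′ up to the base before the start, with the matches in capitals.
P2ry12: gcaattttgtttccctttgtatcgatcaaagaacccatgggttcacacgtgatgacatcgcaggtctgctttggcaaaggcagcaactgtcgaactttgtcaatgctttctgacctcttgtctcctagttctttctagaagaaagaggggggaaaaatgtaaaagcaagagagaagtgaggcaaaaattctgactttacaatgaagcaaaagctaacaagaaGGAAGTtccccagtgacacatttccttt
Tmem119: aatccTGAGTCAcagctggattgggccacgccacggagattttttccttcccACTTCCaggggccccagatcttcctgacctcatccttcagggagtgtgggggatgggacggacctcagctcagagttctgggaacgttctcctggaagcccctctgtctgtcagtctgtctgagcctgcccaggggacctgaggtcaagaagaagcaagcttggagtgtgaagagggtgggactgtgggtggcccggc
In P2ry12 the capitals are the ETS core, which begins 28 bases before the start. In Tmem119 they are the AP-1 letters, 245 bases before it, and the ETS core on the other strand, 198 bases before it.

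Depth bears on how many cells show a marker, so each cell was thinned to 1000 UMIs, which does not remove free RNA. Thinning took all UMIs, those of Gm10800 among them. Protein-coding genes took 51.2 to 54.4% of UMIs in homeostatic cells and 32.0 to 47.0% in other microglia of the 4 libraries compared. At 1000 UMIs the other microglia therefore kept fewer UMIs of such genes, which lowers their shares by an amount that was not tested. Cx3cr1 then had a UMI in 149 of 175 homeostatic cells (85.1%, exact interval 79.0 to 90.1%), 96 of 241 other microglia (39.8%, 33.6 to 46.3%) and 7 of 222 NSPCs (3.15%). For P2ry12 the shares were 80.0%, 39.0% and 2.25%, for Tmem119 65.7%, 20.7% and 1.35%, for Gpr34 58.3%, 17.8% and 0%, and for Selplg 84.0%, 51.0% and 5.41%. Unthinned, between 90.9% (Gpr34) and 98.3% (Selplg) of homeostatic cells had a UMI of each marker. NSPCs, which should lack these genes, give the background, and both microglial groups lay far above it. Of the 241 other microglia 146 came from PT D1, where the levels of every marker but Selplg were lowest in both libraries, so cluster and condition are mixed in these shares. In the 4 libraries used for the ratios the shares in homeostatic and other microglia were 85.6% of 174 and 53.7% of 95 cells for Cx3cr1, 80.5% and 55.8% for P2ry12, 66.1% and 25.3% for Tmem119, 58.6% and 37.9% for Gpr34, and 84.5% and 53.7% for Selplg. These shares pool cells of 4 libraries that were clustered on the same counts, so they describe the clusters. Their median depths over all cells were 4759 UMIs in homeostatic cells, 5046 in other microglia and 6449 in NSPCs.

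Among the other clusters, cluster 2 and cluster 4 came closest to the homeostatic cells in Tmem119, P2ry12 and Gpr34, and clusters 1 and 3 were farthest. Selplg was less clear. It was at 737 and 597 CPM in the other microglia of PT D1. In the other microglia it was at 890 and 697 CPM at PT D7, a range that overlapped, and at 1250 and 1034 CPM without injury. Pooled over libraries, Tmem119 was at 1113 CPM in cluster 0 and at 541, 327, 217 and 195 CPM in clusters 2, 4, 1 and 3. P2ry12 kept the same order with 1961, 1003, 584, 335 and 259 CPM. Gpr34 was at 809 CPM in cluster 0, 444 and 487 in clusters 2 and 4, and only 51.0 and 72.1 in clusters 1 and 3. Cluster 1 came wholly and cluster 3 mostly from PT D1, where no homeostatic cells could be compared, so cluster and condition cannot be told apart there. Of the 41 cells of cluster 3, 35 came from PT D1 library 2, so its pooled levels rest mostly on 1 library. Cluster 0 libraries had a mean Gpr34 level of 813 ± 39.5 CPM (SD, n = 4) and cluster 4 libraries 543 ± 48.1 CPM (n = 2), ranges that did not overlap. For cluster 2 against cluster 4 the ranges of Gpr34, 324 to 538 and 509 to 577 CPM, overlapped.

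**Figure D3:**
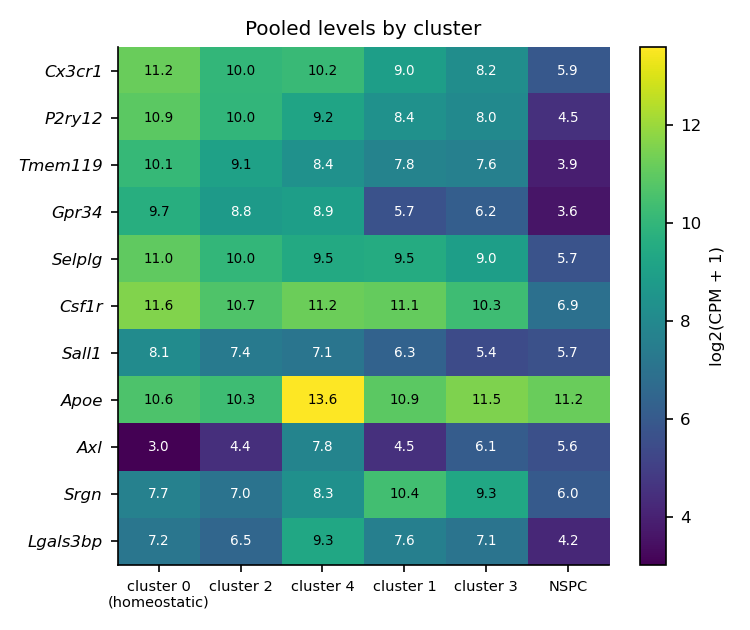
Pooled level of 11 genes in the 5 microglial clusters and in NSPCs, as log2(CPM + 1), with the value in each cell of the grid. The 5 markers, Csf1r and Sall1 are highest in cluster 0, Apoe, Axl and Lgals3bp in cluster 4, and Srgn in cluster 1.

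Of 31 further surface and secreted identity genes of microglia compared, 27 lay above the median ratio of all genes and 7 were higher by the rule, with a list median of 0.84 against 0.50 over all genes. These 7 and the counts of the lists that follow are to be read against the 10.8% of all genes that were higher. Counts over genes that reached 50 CPM in both kinds of cell are to be read against 86 higher of 1662 such genes. Of the 31 genes 29 reached 50 CPM in both kinds of cell, and 5 of these were higher. Abcc3 and Ecscr reached it in homeostatic cells only. Among the 7 were Slc2a5, the fructose transporter GLUT5 (ratio 1.84 ± 0.54), Abcc3, an efflux pump (1.54 ± 1.28), Ecscr (1.32 ± 0.84), Crybb1 (1.23 ± 0.82), the adhesion receptor gene Adgrg1 (1.12 ± 0.65) and the sialomucin gene Cd164 (1.10 ± 0.39). PT D1 microglia held 409 and 372 CPM of Cd164, within its homeostatic range of 277 to 621 CPM. Abcc3 there, at 38.9 and 24.8 CPM (homeostatic 32.6 to 96.1), lay within the range in library 1 only. Ecscr, Crybb1 and Adgrg1 lay below their homeostatic ranges in both PT D1 libraries. Slc2a5 was at 211, 219, 272 and 171 CPM in homeostatic cells and at 70.7, 30.7, 94.6 and 46.1 CPM in the others, with PT D1 microglia at 13.9 and 13.5 CPM. Its groups did not overlap, and it was the one identity gene that stayed higher under all 3 scalings. Abundant genes of the list moved less: Cst3, the protease inhibitor cystatin C, was at 15955, 13640, 17757 and 11478 CPM against 8678, 9329, 8790 and 6605 CPM (0.81 ± 0.20). The homeostatic libraries of Cst3 all lay above the others. Ctss (0.38 ± 0.33), a lysosomal protease, and Trem2 (0.27 ± 0.34), a lipid receptor, lay below the median of all genes.

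Of 15 transcription regulators of microglia compared, 13 lay above the median of all genes and 3 were higher, Smad3 (1.51 ± 1.41), Elk3 (1.31 ± 1.36) and Nrip1 (1.26 ± 0.87), with a list median of 0.78. Smad3 and Elk3 reached 50 CPM in homeostatic cells only, so the filter fixed their direction, and of the 13 regulators that reached it in both kinds of cell 1 was higher. Smad3, which carries TGF-beta signals to the nucleus, was at 75.1, 62.1, 32.0 and 40.7 CPM against 35.4, 0, 21.5 and 17.3 CPM, so its ratio rests on few UMIs. Sall1, a regulator of microglial identity, reached 1.00 ± 0.62 and was just short of the rule. Among the most abundant were Maf (0.92 ± 0.39), Mef2c (0.64 ± 0.44) and Irf8 (0.58 ± 0.39), and none of the 15 was lower.

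Of the TGF-beta pathway 11 genes were compared and 2 were higher, Smad3 and Nrros (1.62 ± 0.94), whose product anchors latent TGF-beta on microglia. Nrros was at 78.7, 119, 144 and 138 CPM against 23.6, 10.2, 73.1 and 63.4 CPM, with no overlap in these libraries. The PT D1 microglia, at 91.7 and 92.4 CPM, lay within the homeostatic range. Both genes reached a mean of 50 CPM in homeostatic cells only, so the filter fixed their direction, and of the 8 genes that reached it in both kinds of cell 0 were higher. The receptor genes Tgfbr1 (0.46 ± 0.29) and Tgfbr2 (0.36 ± 0.21) lay below the median of all genes, whereas the TGF-beta target Pmepa1 lay above it (0.96 ± 0.29). The list median was 0.64, but 0.46 over those 8 genes, against 0.40 over all genes that reached 50 CPM in both kinds.

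Nucleotide sensing genes other than P2ry12 had a median of 0.65, and none of 7 was past the rule. P2ry13, a second ADP receptor gene beside P2ry12 on chromosome 3, was at 766, 772, 1201 and 733 CPM against 613, 471, 387 and 294 CPM (0.99 ± 0.58), and Entpd1, the surface enzyme CD39 that breaks down ATP, at 250, 337, 256 and 204 CPM against 130, 133, 129 and 121 CPM (0.98 ± 0.24). In both the homeostatic libraries all lay above the others. In the CSF1 receptor pathway, 10 genes were compared with a median of 0.61. Csf1r itself was at 3220, 2893, 3715 and 3232 CPM against 1993, 2089, 2056 and 1844 CPM (0.70 ± 0.17). The kinase gene Pik3cg was higher (1.14 ± 0.14), and the ligand gene Csf1 was lower (-2.07 ± 1.24), with 7.16, 5.40, 0 and 24.4 CPM against 11.8, 51.2, 55.9 and 115 CPM. Pik3cg reached a mean of 50 CPM in homeostatic cells only and Csf1 in the others only, so the filter fixed both directions, and of the 7 genes that reached it in both kinds 0 were past the rule.

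Receptors and integrins of surveillance had a median of 0.88 and 4 of 12 genes higher, among them the chemerin receptor gene Cmklr1 (1.08 ± 0.48) and the integrin genes Itgb1 (1.12 ± 0.29) and Itga9 (1.24 ± 0.90). Cmklr1 and Itga9 were compared through the homeostatic cells alone, and of the 9 genes at 50 CPM or more in both kinds of cell 2 were higher. Actin and motility genes stood close to all genes, with a median of 0.43 and 1 of 27 higher (Arhgap5, 1.10 ± 1.07), and Actb, the main cytoplasmic actin, had a ratio of 0.46 ± 0.59. Complement genes likewise had a median of 0.49 and 0 of 6 past the rule, with C1qb at 4902, 4691, 4948 and 5275 CPM against 2948, 3502, 4051 and 4190 CPM (0.44 ± 0.20). PT D1 microglia held 7111 and 5351 CPM of C1qb, above all the homeostatic libraries. Lysosome genes had a median of 0.02, below that of all genes, with 0 of 20 past the rule. As protein-coding values the list medians were 0.37 for transcription regulators, 0.25 for the TGF-beta pathway, 0.22 for nucleotide sensing, 0.22 for the CSF1 receptor pathway, 0.49 for surveillance receptors, 0.02 for actin genes, 0.06 for complement and -0.40 for lysosome genes, so on that scale each list stayed on its side of the median of all genes. Slc2a5 was at 1.43, Nrros at 1.23 and Smad3 at 1.14 on that scale. Over genes that reached 50 CPM in both kinds of cell, without that scaling, the median of all genes was 0.40. Transcription regulators (0.73), nucleotide sensing (0.60), the CSF1 receptor pathway (0.57) and surveillance receptors (0.86) lay above it. Actin (0.43) and complement genes (0.48) then also lay above it, and lysosome genes (0.03) below it.

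**Figure D4:**
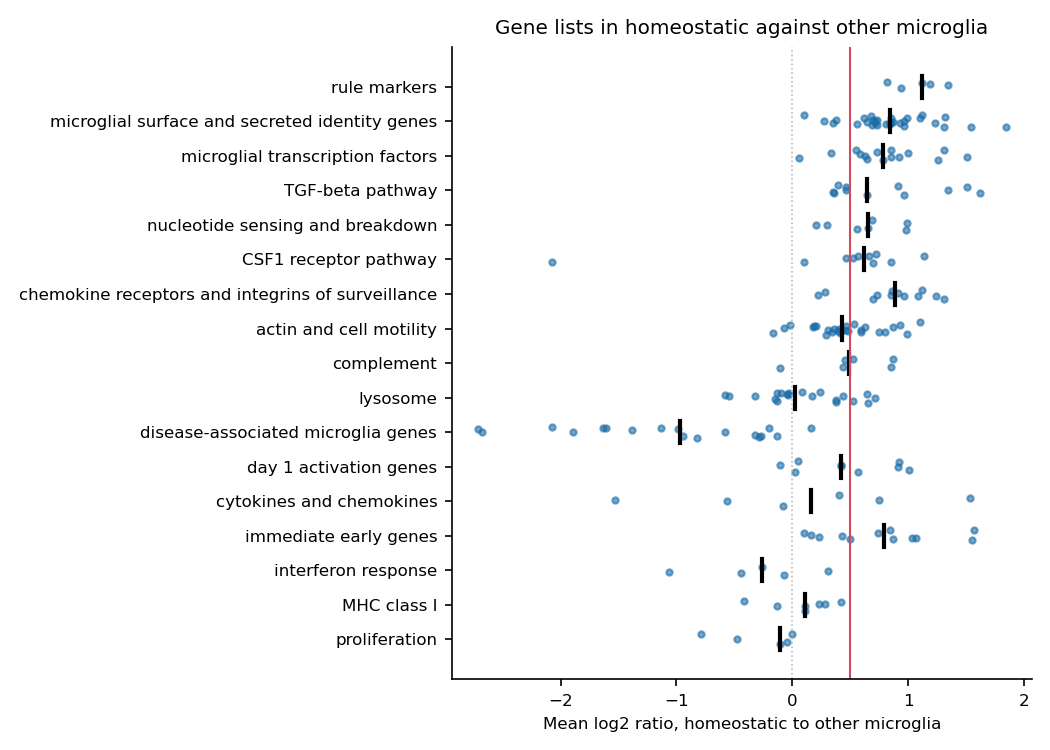
Mean log2 ratio of homeostatic to other microglia for the members of 17 gene lists that could be compared (points, spread vertically only for visibility), with the list median (black bar), the median of all 2557 genes (red line, 0.50) and 0 (dotted). Identity genes and transcription factors lie mostly right of the red line, and the 18 disease-associated microglia genes lie left of it, 6 of them compared only because the other microglia reached 50 CPM.

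Of 18 genes known to rise in disease-associated microglia that were compared, 3 were lower by the rule, Axl, Csf1 and Apoe, beside 1.17% of all genes. For 6 of the 18, Axl, Clec7a, Itgax, Spp1, Lgals3 and Csf1, only the other microglia reached 50 CPM, so the filter fixed their direction, and the median of -0.97 over the 18 is no measure of the list. The 12 that reached it in both kinds of cell had a median of -0.45, against 0.40 over all such genes, and 1 of them, Apoe, was lower. All members of the list summed to 8319, 8172, 9863 and 11535 CPM in homeostatic cells and 7853, 16210, 17615 and 23971 CPM in the others, so the sum was lower in 3 of 4 libraries and not in uninjured library 1. This list was drawn up with results of these cells known, and cluster 4, which the study names by such genes, is among the cells compared with. Apoe, the lipid carrier, was at 1306, 1358, 1281 and 3134 CPM in homeostatic cells and 3125, 4618, 5457 and 7965 CPM in the others (-1.61 ± 0.39). In PT D7 library 2, 3 of the 32 homeostatic cells gave 218 of its 385 Apoe UMIs (56.6%). The 2 ranges overlapped by a hair, at 3134 and 3125 CPM, although the homeostatic level was lower within each library. Apoe was highest in cluster 4 with 12363 CPM pooled, while the libraries of cluster 2, at 1018, 1334 and 1152 CPM, overlapped those of cluster 0. In uninjured library 1, 16 of the 17 other microglia were cluster 2 and 1 was cluster 4. Its cluster 2 cells, at 1018 CPM of Apoe, lay below its homeostatic cells at 1306 CPM. The negative sign of the Apoe ratio of that library (-1.25) therefore rests on 1 cell. So does the place of Apoe among the lower genes, which asks for that sign in all 4 libraries. PT D1 microglia, at 2791 and 2595 CPM of Apoe, lay within the homeostatic range. Axl, a receptor kinase for dying cells, was at 10.7, 2.70, 0 and 16.3 CPM against 11.8, 71.7, 120 and 161 CPM (-2.68 ± 1.86), so its uninjured library 1 hardly differed. As protein-coding values Apoe was at -2.04 and Axl at -2.97. Lyz1, a lysozyme gene near-identical to Lyz2, was at 168, 135, 192 and 212 CPM against 342, 983, 477 and 841 CPM (-1.77 ± 0.81). Lyz2 is on the list of monocyte markers, which as a whole summed to 28.6, 32.4, 64.0 and 24.4 CPM against 11.8, 81.9, 47.3 and 28.8 CPM. Few or no reads were thus counted on Lyz2, and how reads were assigned between the 2 genes was not tested. In PT D1 microglia Lyz1 was at 172 and 205 CPM, within the homeostatic range, so its low level was not particular to homeostatic cells. The other genes among the 8 lowest were Lilr4b, a receptor gene with near-identical copies (-2.54 ± 1.93), Stxbp6 (-1.56 ± 0.84) and the unnamed RP23-335G1.5 and Gm37788. Stxbp6 and Gm37788 also lay within their homeostatic ranges in both PT D1 libraries, so their low levels were not particular to homeostatic cells. For Csf1 and RP23-335G1.5, PT D1 library 1 lay above the homeostatic range and library 2 within it. Axl and Lilr4b lay above their homeostatic ranges in both PT D1 libraries. Of these 8 lowest genes 5 reached 50 CPM in the other microglia only.

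The 8 highest ratios belonged mostly to genes of low abundance. Of the 8, 7 reached 50 CPM in homeostatic cells only, so the filter fixed their direction, and Lrrc17 reached it in both kinds. Among them were Fmnl2 (2.55 ± 0.65), a formin of the actin skeleton, Lrrc17 (2.21 ± 1.52), 2610528A11Rik (2.20 ± 0.71), the chromatin remodeller gene Chd8 (2.11 ± 1.16), Pip5k1c (2.08 ± 0.81), a phosphoinositide kinase, and D8Ertd738e (2.07 ± 1.25). Fmnl2 had 36 UMIs in all homeostatic cells and 5 in the others of the same libraries, and Chd8 had 70 and 17. Chd8 was at 68.0, 86.4, 96.1 and 106 CPM against 0, 20.5, 47.3 and 23.1 CPM, with no overlap. For Fmnl2 the PT D1 microglia, at 75.1 and 38.3 CPM, lay within the homeostatic range of 29.7 to 89.5 CPM, so its low level was not shared by all other microglia. The same held in PT D1 for Pip5k1c (52.8 and 67.6 CPM, homeostatic 42.9 to 122) and Lrrc17 (91.7 and 67.6 CPM, homeostatic 32.0 to 458). 2610528A11Rik was at 41.7 and 306 CPM there (homeostatic 42.9 to 112) and D8Ertd738e at 63.9 and 67.6 CPM (64.0 to 89.5), so 1 PT D1 library of each lay just below the homeostatic range and the other within or above it. Chd8, at 52.8 and 65.3 CPM, lay below its homeostatic range in both.

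Of 12 immediate early genes 4 were higher in homeostatic cells, beside 10.8% of all genes, and 0 were lower. Klf4 and Hspa1a reached 50 CPM in homeostatic cells only, which fixed their direction, and of the 10 genes that reached it in both kinds of cell 2 were higher, Rhob and Egr1. The 4 were Rhob (1.07 ± 0.26), Klf4 (1.57 ± 1.14), Hspa1a (1.55 ± 1.22), which has a near-identical copy in Hspa1b, and Egr1 (1.03 ± 1.75), and the list median was 0.79. Over the 10 genes that reached 50 CPM in both kinds it was 0.62. The Egr1 ratio rested on uninjured library 1, at 3.64 where the other microglia were at 0, and was 0.35, 0.08 and 0.04 in the other libraries. The list summed to 2995, 3843, 2994 and 2955 CPM in homeostatic cells and 1946, 2406, 1604 and 1942 CPM in the others of these libraries, but to 3130 and 5207 CPM in PT D1 microglia. Klf4 was at 78.7, 132, 32.0 and 73.3 CPM in homeostatic cells and at 139 and 164 CPM in PT D1 microglia, which lay above all 4. Fos was at 78.7, 165, 48.0 and 40.7 CPM in homeostatic cells against 82.5, 71.7, 34.4 and 63.4 CPM, higher in 2 of the 4 libraries, and at 125 and 340 CPM in PT D1 microglia. These genes respond to tissue dissociation as well as to signals in the brain, and the part of dissociation was not tested. Of 9 genes of day 1 activation compared within the 4 libraries 0 were past the rule, with a median of 0.42. Srgn, the proteoglycan serglycin, was at 147, 256, 160 and 204 CPM in homeostatic cells against 1512 and 816 CPM in PT D1 microglia, a comparison across libraries in which condition and cluster cannot be told apart. Interferon response (median -0.26, 0 of 5), MHC class I (0.11, 0 of 7) and proliferation genes (-0.11, 0 of 5) lay below the median of all genes without a member past the rule.

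Homeostatic cells also held UMIs of neighbouring cell types. At least 3 markers had a UMI in 34.3% of them for oligodendrocytes (32.0% of other microglia), 25.7% for astrocytes and stem cells (12.4%), 21.1% for the choroid plexus (4.98%) and 14.3% for neuroblasts (5.81%). These shares pool the libraries, and 124 of the 175 homeostatic cells were uninjured whereas 146 of the 241 others were from PT D1, so cluster and condition are mixed in them. Within libraries the choroid plexus markers summed to 13010, 4253, 48.0 and 97.7 CPM in homeostatic cells against 3019, 6492, 787 and 271 CPM in the others, lower in homeostatic cells in 3 of 4, with a median ratio of -0.60 over the 2 compared. The choroid plexus gene Ttr was among their 10 most abundant genes and is described with PT D7 below. The 9 oligodendrocyte markers all had a UMI in homeostatic cells and summed to 1106, 1096, 1169 and 2198 CPM, against 460, 758, 624 and 640 CPM in the others, and 2 of the 4 compared were higher by the rule, among them the myelin gene Mbp (1.66 ± 0.52). Mbp was the most abundant of them, and in PT D7 library 2 3 cells gave 122 of its 152 UMIs (80.3%). After thinning Mbp had a UMI in 23.4% of homeostatic cells, 11.6% of other microglia and 16.7% of NSPCs, so the share in NSPCs lay between the microglial shares. Of 3 astrocyte and stem cell markers compared Aldoc was higher (1.11 ± 0.59), with a list median of 0.68, but it reached 50 CPM in homeostatic cells only. Of 4 neuroblast markers compared Dlx1 was higher (1.62 ± 1.07), but it too reached 50 CPM in homeostatic cells only, and 0 of the 4 reached it in both kinds. The list median was 0.43, below that of all genes, but as protein-coding values it was 0.16, above the 0.12 of all genes. The list summed to 129, 505, 160 and 554 CPM against 94.3, 1004, 73.1 and 259 CPM, lower in homeostatic cells in uninjured library 2. Their part in the other ratios was not tested.

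How far homeostatic cells differed among themselves was read from the counts thinned to 1000 UMIs. Over 938 genes with at least 0.1 UMIs per cell in 3 libraries, the variance was a median 1.06 times the mean. It was 56.4 times the mean for Gm10800, 16.3 for Gm42418, 12.3 for the mitochondrial mt-Rnr2, 4.15 for Cst3, 4.10 for Apoe and 3.14 for Mbp. Without PT D7 library 2 it was 4.69 for Gm42418 and 2.01 for Mbp. Unthinned, the marker Cx3cr1 had a median of 11.5, 13.5, 6.5 and 6.5 UMIs per cell and a highest cell of 26, 24, 30 and 21 UMIs, and the 3 highest cells gave 11.1%, 7.98%, 40.8% and 23.6% of its UMIs. In PT D7 library 1, with 18 cells, its level therefore rested in part on 3 cells.

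The other comparison asked whether homeostatic cells of PT D7 differed from those of uninjured mice. It used the UMIs summed per library, 2 libraries against 2, with the quasi-likelihood test of edgeR over 2618 genes and p-values adjusted by Benjamini and Hochberg. Only 4 genes were called (0.153%), 1 higher (0.0382%) and 3 lower (0.115%), and 178 had an unadjusted p under 0.05. The count was 9 without uninjured library 2, 44 without PT D7 library 1 and 7 without PT D7 library 2. At this depth the test found 70% of simulated 4-fold changes and 13% of 2-fold changes, so most 2-fold changes were not detectable. No PT D1 comparison could be made with 1 cell. The plate and mice of a library are not given, so condition and plate cannot be told apart, and p-values measure only the spread between these libraries.

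The 3 genes that were lower were Ttr and Enpp2, both among the choroid plexus markers, and Igf2. Ttr, the thyroxine carrier transthyretin that the choroid plexus makes in bulk, was at 12005 and 3697 CPM in uninjured and 16.0 and 89.5 CPM in PT D7 homeostatic cells (log2 fold change -6.97 ± 0.63 SE, adjusted p = 2.08e-05 by edgeR). Enpp2, the enzyme autotaxin, was at 698 and 451 CPM against 32.0 and 8.14 CPM (-5.10 ± 0.53 SE, adjusted p = 6.94e-05 by edgeR). Igf2, an insulin-like growth factor, had 99 UMIs in the uninjured cells, at 154 and 151 CPM, and 0 among 185294 UMIs at PT D7. Against a limit of 3 UMIs over both PT D7 libraries it was at least 9.41-fold lower (adjusted p = 0.00494 by edgeR). None of the 3 overlapped between conditions.

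The same genes were read, without a test, in the other cells of these libraries. Ttr in NSPCs was at 1411 and 3346 CPM without injury, against 41.8 and 26.7 CPM for PT D1 and 48.5 and 43.0 CPM for PT D7. Enpp2 in NSPCs was at 112 and 420 CPM, then 34.8 and 14.8 CPM, then 48.5 and 20.2 CPM, and Igf2 at 51.6 and 94.5 CPM, then 0 and 5.92 CPM, then 0 and 10.1 CPM. The other microglia held 2712 and 5950 CPM of Ttr in uninjured and 679 and 254 CPM in PT D7 libraries, and 236 and 451 against 73.1 and 11.5 CPM of Enpp2. Their Igf2 was at 35.4 and 205 CPM against 38.7 and 0 CPM, so its conditions overlapped. Thus Ttr and Enpp2 were higher in the uninjured than in the PT D7 libraries in all 3 kinds of cell, and Igf2 in homeostatic cells and NSPCs, while its difference between kinds of cell was not tested. In uninjured library 1, 53 of 54 homeostatic cells had a Ttr UMI with a median of 10.0, but 3 cells gave 82.0% of the 3355 UMIs. There the highest 3 cells also gave 145 of 195 Enpp2 UMIs (74.4%) and 33 of 43 Igf2 UMIs (76.7%), and 12 of 54 cells had an Igf2 UMI. In library 2 all 70 had a Ttr UMI, with a median of 16.0, and the highest 3 gave 13.5% of Ttr, 12.6% of Enpp2 and 21.4% of Igf2 UMIs. The 9 choroid plexus markers all had a UMI in homeostatic cells and summed to 13010, 4253, 48.0 and 97.7 CPM, with Ttr the most abundant. The part that RNA of choroid plexus cells has in the 3 calls was not tested.

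**Figure D5:**
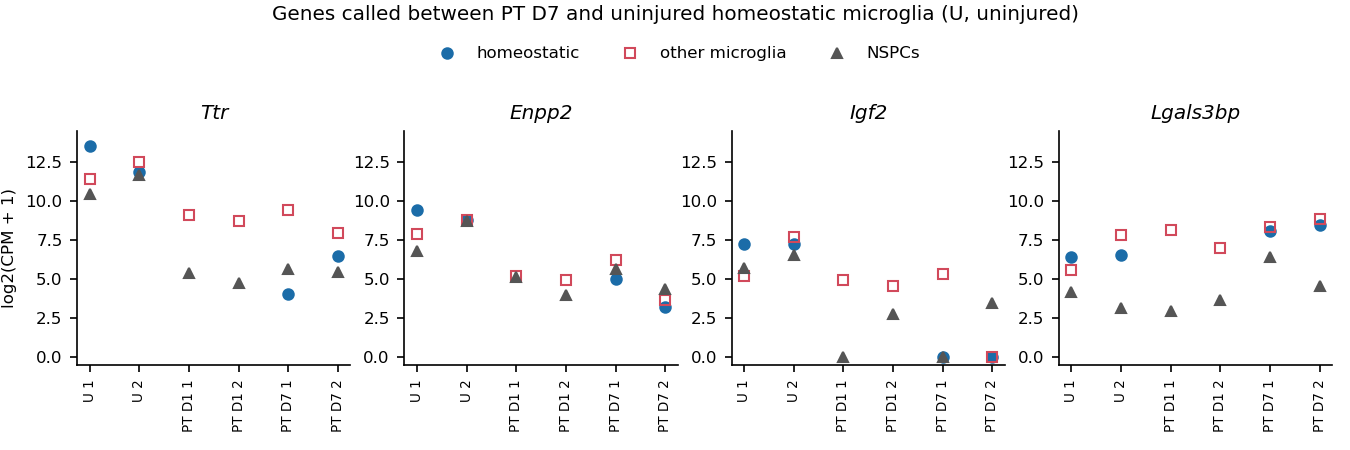
Level of the 4 genes called between PT D7 and uninjured homeostatic microglia, as log2(CPM + 1) in each library (U, uninjured), in homeostatic microglia (filled circles), other microglia (open squares) and NSPCs (triangles). Ttr and Enpp2 are higher in the uninjured than in the PT D7 libraries in all 3 kinds of cell and Igf2 in homeostatic cells and NSPCs, and Lgals3bp is higher at PT D7 in both homeostatic (272 and 358 CPM) and other microglia (331 and 461 CPM).

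The 1 rise was Lgals3bp, a secreted galectin-binding glycoprotein counted among disease-associated microglia genes. It was at 85.9 and 91.8 CPM in uninjured and 272 and 358 CPM in PT D7 homeostatic cells (log2 fold change 1.83 ± 0.32 SE, adjusted p = 0.0214 by edgeR), with no overlap. A UMI was seen in 18 of 54 and 23 of 70 uninjured cells and in 9 of 18 and 18 of 32 PT D7 cells, although these were shallower. The other microglia held 47.2 and 225 CPM in uninjured and 331 and 461 CPM in PT D7 libraries, also without overlap. In cluster 4 it was at 640 CPM pooled, above the homeostatic cells of either condition. The call was lost under 6 of 13 other settings, among them without uninjured library 1 (adjusted p = 0.0954 by edgeR) and without PT D7 library 2 (adjusted p = 0.253), where the lone library left in a condition is assumed to vary like the other condition, while the log2 fold change stayed between 1.47 and 3.15.

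Of the 5 markers, 31 identity genes and 15 transcription factors 0 were called, which at 0.153% of all genes called says nothing particular about them, with list medians of -0.08, -0.03 and -0.16 log2 against 0.00 over all genes tested. The fitted changes of the markers were -0.17 ± 0.25 SE for Cx3cr1, -0.19 ± 0.26 for P2ry12, 0.02 ± 0.28 for Tmem119, -0.08 ± 0.24 for Gpr34 and 0.20 ± 0.26 for Selplg. The cells were clustered on these same counts, so a cell low in these genes could have been placed in another cluster. Of 12 disease-associated genes tested only Lgals3bp was called, with a list median of 0.17, and Apoe was not (0.73 ± 0.34 SE, adjusted p = 0.723 by edgeR). Chemokine receptors and integrins had a median of 0.25 over 13 genes, lysosome genes 0.17 over 20, nucleotide sensing genes -0.36 over 8 and immediate early genes -0.10 over 13, all without a call. The next smallest p-values belonged to Malat1, a nuclear non-coding RNA, with 5492 and 4351 CPM against 2402 and 2003 CPM (-1.20 ± 0.27 SE, adjusted p = 0.193 by edgeR), and to the stress gene Ddit4, with 125 and 121 CPM against 16.0 and 24.4 CPM (-2.51 ± 0.57 SE, adjusted p = 0.193), both named after their values were seen. Their conditions did not overlap, but neither passed the adjusted threshold.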

How the data were processed

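The authors sorted single cells into 6 libraries of 192 wells, 2 per condition, and made mCEL-Seq2 libraries with 6-base UMIs. The submitters' processing notes name bcl2fastq 2.17.1.14 and the build GRCm39; how reads were counted, and with which annotation, is not given in the sources used here. As deposited by the authors, the matrix holds counts, the UMIs of 34203 genes in each cell, not normalized. Their quality control kept cells of over 1000 UMIs with at most 25% mitochondrial UMIs and dropped cells beyond 3 median absolute deviations of total UMIs as putative doublets, so no doublet caller was run here. The deposited cell table gives the percentage of mitochondrial UMIs and the authors' cluster of each cell; 12 of its columns were not used. Library numbers were read from cell names. At PT D7 both libraries carry 1 in the field that numbers the library elsewhere, and the last field was used, so which of them is called 1 or 2, and the replicate block, rest on that reading. These names number the cells of each library, and 145 of the 175 homeostatic cells share their number with a homeostatic cell of another library.

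UMIs were summed per library and cell group where at least 10 cells were present. Genes with a mean of at least 50 CPM in homeostatic or other microglia entered the ratios, with a prior count of 1. PT D7 and uninjured sums were compared with edgeR 4.0.16 in R 4.3.3 (quasi-likelihood, TMM, adjusted p threshold 0.05), tested on simulated data, with DESeq2 1.42.0 as an alternative. Named genes were the 5 markers, the 8 highest and 8 lowest ratios past the fold, called genes with no overlap between conditions, the 4 most abundant members of each list with any member past the fold or called, the 10 most abundant genes, and genes the study names for microglia; a few others are given as values, and some items are not reported here. The cells, lists and tests were chosen with earlier results of these data known. Of the symbols 28446 matched GENCODE vM39, which held 66.1% of the homeostatic UMIs; positions and promoters come from it. Scaling over protein-coding genes, centring, leaving out cluster 4, and marker shares within the 4 libraries were alternatives chosen after seeing the data. Intervals of shares are exact (Clopper-Pearson).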

Additional observations from a re-analysis of the deposited data

Results flagged for a closer look

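Of 133 named genes examined, 4 had a ratio of homeostatic to other microglia of one sign in both uninjured libraries and of the opposite sign in both PT D7 libraries; the difference between conditions was not tested. C3ar1, a complement receptor gene, had a mean log2 ratio of 0.43 in uninjured (0.83 and 0.03) and -0.65 in PT D7 libraries (-1.12 and -0.18), a difference of 1.08. Ccl3, a chemokine gene, had 1.69 (1.11 and 2.26) and -1.83 (-1.54 and -2.12), a difference of 3.52. Homeostatic cells held 57.2 and 70.2 CPM of Ccl3 without injury and 144 and 89.5 CPM at PT D7. The other microglia held 23.6 and 10.2 CPM, then 430 and 409 CPM. These others were not the same clusters in each condition, with 1 and 5 cells of cluster 4 without injury and 16 and 13 at PT D7. Il1a, which encodes interleukin-1 alpha, had -0.38 (-0.12 and -0.64) and 1.19 (1.91 and 0.46), a difference of -1.56. Il1a reached a mean of 50 CPM in homeostatic cells only (51.1 against 38.2 CPM) and rests on 34 UMIs against 20. Rtp4, an interferon-induced gene, had -0.96 (-0.55 and -1.38) and 1.58 (2.30 and 0.86), a difference of -2.54. It rests on 4, 6, 8 and 7 UMIs in homeostatic cells, at 14.3 and 16.2 CPM without injury and 128 and 57.0 CPM at PT D7. Their mean of 53.9 CPM was just over the limit of 50 CPM and came mostly from PT D7, so the filter favoured its positive PT D7 ratios. When each library was centred on its median ratio, 3 of the 4 kept opposite signs, and C3ar1 did not, with 0.12 and -0.15 in the uninjured libraries. Over all 210 members of the gene lists that were compared, 13 had such opposite signs (6.19%), against 107 of all 2557 genes (4.18%). The member with the largest difference was Ccl4, a chemokine gene named here after its values were seen, with 0.98 and 0.20 in uninjured and -3.78 and -3.50 in PT D7 libraries, a difference of 4.23. Others among the 13 were Btg2, Cd68, Cotl1, Dock2, Lipa, Psmb8 and Rac1, with differences from -0.85 to 1.14.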

How the results depend on the processing

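The counts of genes past the fold, 277 higher and 30 lower, moved with the prior count, the cells compared and the scaling; the causes were not tested. A prior count of 5 gave 71 higher and 19 lower, the comparison without cluster 2 gave 418 and 102, without cluster 4 593 and 76, cells with at most 10% mitochondrial UMIs 428 and 46, the uninjured libraries alone 425 and 95, CPM over protein-coding genes 158 and 120, centring 49 and 109, and at least 50 CPM in both kinds of cell 86 and 21. Leaving out a cluster kept all 4 libraries, but without cluster 2 only 1 other microglial cell was left in uninjured library 1 and 8 in library 2, and without cluster 4 only 9 in library 2, under the minimum of 10, so 1 of those ratios rests on a single cell. Leaving out 1 library gave 313 to 482 higher and 44 to 77 lower. Thinning every cell to 1000 UMIs gave 292 higher and 44 lower, but only 72 and 10 of these were among the 277 and 30. Without cluster 2, 170 of the higher and 3 of the lower genes were among them. The 5 marker ratios kept their sign under all 15 alternatives but moved in size. They ranged from 0.48 to 1.10 for Cx3cr1, 0.67 to 2.08 for P2ry12 and 0.88 to 1.84 for Tmem119. For Gpr34 the range was 0.36 to 1.15 and for Selplg 0.74 to 1.55. Each was lowest with centring, and the 2.08 of P2ry12 was without cluster 2. Without clusters 2 and 3 the homeostatic share was 95.4% in uninjured and 63.3% in PT D7 mice, and with at most 10% mitochondrial UMIs it was 0% at PT D1. Thinned to 2000 UMIs, the shares of homeostatic cells with a UMI were 93.5% for Cx3cr1, 90.2% for P2ry12, 89.5% for Tmem119, 75.8% for Gpr34 and 92.8% for Selplg.

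Of the genes called at PT D7, 4 in the reported test, DESeq2 called 2, no filter on low counts 14, at most 10% mitochondrial UMIs 2, thinning to 1000 UMIs 2, and leaving out 1 library 4 to 44, with the lone library of a condition assumed to vary like the other condition. With at least 10 UMIs in every library edgeR called 0 of 680 genes, 58 of them at an unadjusted p under 0.05, but this left Lgals3bp as the one of the 4 that was tested (adjusted p = 0.158 by edgeR). With the library number as a replicate block 9 genes were called, the 4 among them; the numbers are only labels, and same-numbered libraries correlated at 0.0834 over 2 pairs. Ttr passed wherever it was tested, Enpp2 was lost with at most 10% mitochondrial UMIs (-4.16) and Igf2 with DESeq2 (-6.30). The change of Tmem119, 0.02, turned to -0.06 with DESeq2, -0.20 with no filter, -0.10 with at least 10 UMIs, -0.01 with the block, and -0.08 with the mitochondrial limit and with thinning; leaving out 1 library gave -0.44 to 0.36. That of Gpr34 turned to 0.08 with thinning and that of Selplg to -0.01 with no filter. Fitting the 2 conditions alone, or at least 5 cells in place of 10, gave the same 4 libraries, and no PT D1 comparison could be run. With 18 and 32 cells at PT D7, depth limits what could be detected.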
